A study of Mus musculus with 18 samples.

Results

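Cultured mouse primordial germ cell-like cells (PGCLCs) grown with FGF2 were compared with PGCLCs grown with cyclosporin A (CsA). The comparison took the 4 libraries labelled d4c7+FGF2 and d4c7+CsA, 2 replicates of each, out of 18 libraries in 9 groups, and it covered all listed genes. PGCLCs are induced in the dish from embryonic stem cells that first pass through an epiblast-like state, and they resemble the founder cells of sperm and eggs. For both groups the labels give the strain B6D2F1 and the reporters Blimp1-mVenus and Stella-ECFP, which follow the germ cell genes Prdm1 and Dppa3. Cells that carried the mVenus signal were sorted after 4 days of induction, grown for 7 days on m220-5 feeder cells in medium with stem cell factor (SCF), and sorted again for mVenus. The labels call the replicates biological. The other 2 d4c7 groups, which share strain, reporters, feeders and sorts, serve only as context below. The growth protocol, written once for all samples, describes a single culture medium, which held 10 µM forskolin and also rolipram, agents that raise cAMP and that give the group FR10 its name. Read as written it covers the FGF2 and CsA cultures too, but the labels do not state the medium of each group separately. The group FGF10 carries that label with no explanation in the sources used here, which give no FGF2 or CsA dose for these cultures either. Comparisons of FGF2 with CsA therefore set one culture against another, not an agent against its vehicle.

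FGF2 binds receptor tyrosine kinases and signals through RAS and the MAP kinases ERK1/2 to ETS-family transcription factors, and ERK also switches on its own brakes of the Dusp and Spry families. CsA binds cyclophilins, proteins with peptidyl-prolyl isomerase activity, and the complex of CsA with cyclophilin A blocks the phosphatase calcineurin. Cells respond to unfolded protein in the endoplasmic reticulum (ER) through the unfolded protein response, in which the sensors Ire1, Perk and Atf6 raise the transcription of ER chaperones such as Hspa5, also called BiP. The study's design text names the support of PGCLC culture by CsA and by FGF signalling as its subject.

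Expression was read at transcript 3' ends and is given as RPM, reads of a gene scaled to a common number of reads in each library. The smallest step between RPM values corresponded to 2626269 and 4113111 reads in the FGF2 libraries and 3453434 and 3307395 reads in the CsA libraries. At these depths 3 reads equalled 0.729 to 1.14 RPM. Differences are log2 differences of RPM + 1 between the group means, FGF2 minus CsA, with their standard error (SE), and they understate the change of genes near 1 RPM. They were tested with limma over 9561 genes that reached 10 RPM in at least 2 of the 18 libraries, and a gene was called at a Benjamini-Hochberg adjusted p below 0.05. The fit took all 18 libraries, so each SE draws on the spread within all 9 groups and does not measure that of the 4 compared libraries alone. The FGF2 replicates differed from each other by a median of 0.468 on the log2 scale, and the CsA replicates by 0.286. FGF2 replicate 2 had the most reads of the 4 libraries but the fewest genes above 0, 12784. Since the RNA came from sorted bulk cells, fewer cells that express a gene and less RNA per cell cannot be told apart.

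The sorted cells carried germ cell RNA in both groups. The 10 germ cell markers summed to 2478 and 2203 RPM in the FGF2 libraries and to 2580 and 2869 RPM in the CsA libraries, and each marker was above 0 in every library of both groups. Of the 17 fibroblast and feeder markers, 3 and 6 were at 0 in the FGF2 libraries and 3 and 6 in the CsA libraries. Their sum was 629 and 286 RPM with FGF2 and 928 and 689 RPM with CsA. Fibronectin, Fn1, was the highest member, at 334 and 118 RPM with FGF2 and 518 and 512 RPM with CsA, and the uncultured day-4 PGCLCs contained it at 354 and 412 RPM. The collagen gene Col3a1, another of the 17 markers, had 10.3 and 0 RPM in the FGF2 libraries and 40.8 and 13.9 RPM in the CsA libraries. None of the 11 tested feeder markers was called, 2 had an unadjusted p below 0.05, and 2 were called lower without FGF2 replicate 1. Their median difference was -0.84, and it was -0.0017 without CsA replicate 1 and -0.11 without FGF2 replicate 2. Blood markers summed to 7.99 and 3.89 RPM with FGF2 and to 0.868 and 1.51 RPM with CsA. The part of other cell types in the differences below was not tested.

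In all, 280 of 9561 genes were called, 2.93% of those tested, with 121 genes higher with FGF2 (1.27%) and 159 lower (1.66%). The libraries of all 280 genes did not overlap between the groups, a state that 47.9% of all tested genes shared. The median difference was 1.58 on the log2 scale among the genes called higher and 1.83, in size, among those called lower. More than 4-fold differences were found for 44 of the higher and 66 of the lower genes. Many of these genes were low in the group where they fell, since 85 of the 159 lower genes averaged under 10 RPM with FGF2. The calls depended on single libraries. There were 13 calls without CsA replicate 1, 23 without CsA replicate 2, 988 without FGF2 replicate 1 and 31 without FGF2 replicate 2, while all 280 genes kept their direction in each case. The genes called without any one of the 4 libraries were 9 in number. They were Bcat1 and Etv4, both higher with FGF2, and Hspa5, Hsp90b1, Manf, Phlda2, Eif4g3, Cd24a and Spats2, all lower. With only the 4 compared libraries in the fit, no gene passed the adjusted threshold in limma, while 1328 genes had an unadjusted p below 0.05, against 1922 in the fit of 18 libraries. These 1922 of 9561 tested genes are the background for the counts at an unadjusted p below 0.05 given for single gene lists. For the counts of called members of each list, the background is the 1.27% called higher and 1.66% called lower.

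**Figure D1:**
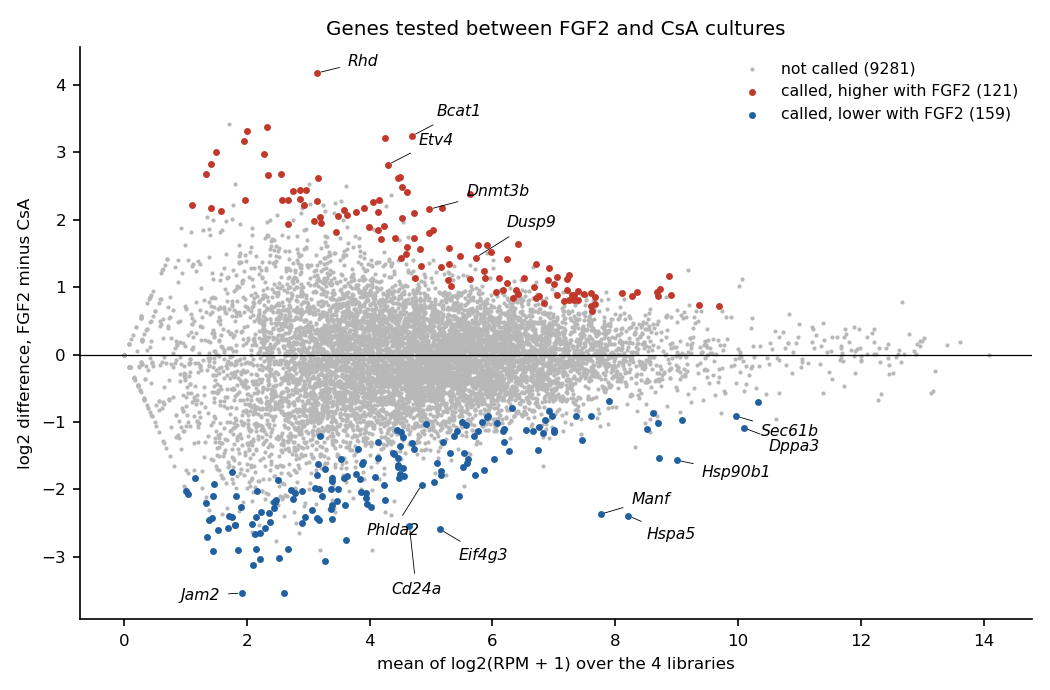
Each point is 1 of 9561 tested genes, by its mean level (x axis, mean of log2(RPM + 1) over the 4 libraries) and its difference (y axis, log2, FGF2 minus CsA). Red points mark the 121 genes called higher with FGF2 and blue points the 159 called lower, and the labelled ER chaperone genes Hspa5, Hsp90b1 and Manf lie at -2.39, -1.57 and -2.37.

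Several genes of protein folding in the ER were lower with FGF2 than with CsA. Of 23 tested ER chaperones and isomerases, 6 were called lower and none higher, against 1.66% and 1.27% of all tested genes. The remaining 17 did not pass. Differences were below 0 for 22 of the 23 members, beside 55.1% of all tested genes, with a median of -0.92 beside -0.078 for all tested genes. Of the 23, 18 had both FGF2 libraries below both CsA libraries, beside 26.6% of all tested genes. Without FGF2 replicate 2, CsA replicate 1 or CsA replicate 2 the count of members called lower was 3 each time, and without FGF2 replicate 1 it was 7. Summed over the 27 genes of the list, the ER chaperones took 2112 and 1942 RPM of the FGF2 libraries and 4263 and 4736 RPM of the CsA libraries.

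The 3 genes given first had the smallest adjusted p. Hspa5, the main Hsp70 chaperone of the ER lumen and a regulator of the unfolded protein sensors, had 147 and 112 RPM with FGF2 and 659.8 and 697 RPM with CsA, a difference of -2.39 ± 0.31 (adjusted p = 0.0012). Hsp90b1, the ER form of the Hsp90 chaperone, had 336 and 262 RPM with FGF2 and 848 and 918 RPM with CsA (-1.57 ± 0.16, adjusted p = 0.00027). Manf, a small ER protein that is secreted under ER stress, had 123 and 72.2 RPM with FGF2 and 459 and 526 RPM with CsA (-2.37 ± 0.31, adjusted p = 0.0012). In each of the 3 genes both FGF2 libraries lay below both CsA libraries, and the difference was called without any one of the 4 libraries.

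Creld2, a disulfide isomerase induced by ER stress, had 30.4 and 13.1 RPM with FGF2 and 84.5 and 94.9 RPM with CsA (-2.10 ± 0.40, adjusted p = 0.013). Dnajc3, a co-chaperone of Hspa5, had 20.9 and 25.03 RPM with FGF2 and 67.1 and 62.5 RPM with CsA (-1.46 ± 0.28, adjusted p = 0.015). The disulfide isomerase Pdia6 had 293 and 203 RPM with FGF2 and 644 and 781 RPM with CsA (-1.54 ± 0.37, adjusted p = 0.033). Creld2, Dnajc3 and Pdia6 failed the threshold without CsA replicate 1, CsA replicate 2 or FGF2 replicate 2 (adjusted p between 0.064 and 0.26). Some well-known members did not pass. The lectin chaperone Calr had 97.04 and 106 RPM with FGF2 and 168 and 191 RPM with CsA (-0.81 ± 0.42, adjusted p = 0.29), and its membrane-bound relative Canx had 116 and 90.9 RPM with FGF2 and 123 and 176 RPM with CsA (-0.51 ± 0.22, adjusted p = 0.21). Pdia4 and Hyou1 had few reads, with differences of -1.51 ± 0.50 and -1.50 ± 0.65 that did not pass (adjusted p = 0.10 and 0.21). The ER oxidase gene Ero1l was the member with a difference above 0, at 146 and 147 RPM with FGF2 and 118 and 128 RPM with CsA (0.25 ± 0.23, adjusted p = 0.57).

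**Figure D2:**
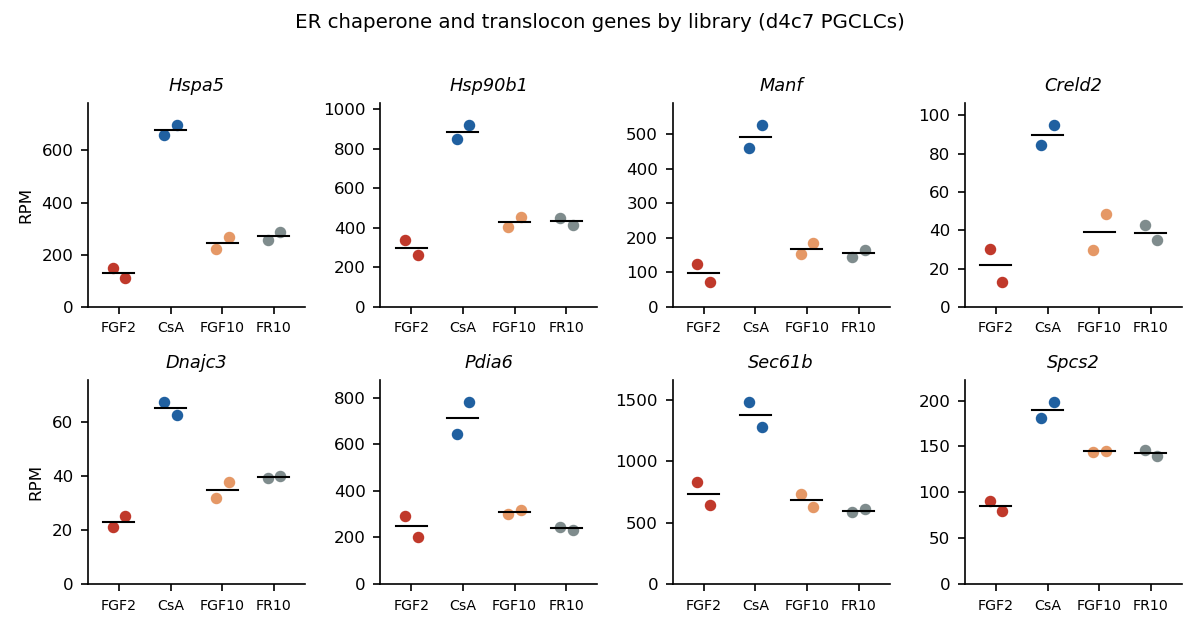
RPM (y axis, from 0) of 6 ER chaperone genes and the translocon genes Sec61b and Spcs2 in the FGF2, CsA, FGF10 and FR10 cultures. Points are the 2 libraries of a group and bars their mean, and in each of the 8 panels both CsA libraries lie above the libraries of the other 3 groups.

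Few genes of protein entry into the ER were called. Of 22 tested genes of the Sec61 translocon and of signal sequence handling, 2 were called lower and none higher, against 1.66% and 1.27% of all tested genes. In this list 21 members lay below 0, beside 55.1% of all tested genes. The list median was -0.40, and -0.51 without FGF2 replicate 1. Sec61b, a subunit of the Sec61 channel, had 829 and 641 RPM with FGF2 and 1481 and 1276 RPM with CsA (-0.91 ± 0.17, adjusted p = 0.014). Spcs2, a subunit of the signal peptidase, had 90.2 and 79.5 RPM with FGF2 and 181 and 198 RPM with CsA (-1.15 ± 0.21, adjusted p = 0.011). Ssr3 of the translocon-associated complex did not pass, at 106 and 56.9 RPM with FGF2 and 187 and 182 RPM with CsA (-1.24 ± 0.39, adjusted p = 0.087). Once CsA replicate 1, CsA replicate 2 or FGF2 replicate 2 was left out, Sec61b and Spcs2 did not pass (adjusted p between 0.064 and 0.16).

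Of 24 tested genes of the unfolded protein response and amino acid stress, 4 were called lower and none higher, with a median of -0.38, and without FGF2 replicate 1 the counts were 7 lower and 1 higher. Over all tested genes, 1.66% were called lower and 1.27% higher, with a median of -0.078. Of the 24, 16 had differences below 0, beside 55.1% of all tested genes. The 4 called genes were of ER-associated degradation and of recovery. Herpud1, a membrane adaptor of ER-associated degradation, had 4.95 and 4.37 RPM with FGF2 and 23.7 and 19.3 RPM with CsA (-1.99 ± 0.41, adjusted p = 0.022). Syvn1, the ubiquitin ligase Hrd1, had 8.75 and 2.19 RPM with FGF2 and 15.1 and 23.6 RPM with CsA (-1.83 ± 0.47, adjusted p = 0.045), and Selk, an ER selenoprotein, had 46.4 and 38.9 RPM with FGF2 and 82.2 and 81.9 RPM with CsA (-0.93 ± 0.22, adjusted p = 0.032). Ppp1r15b, which helps to remove the phosphate from the translation factor eIF2 alpha, had 14.1 and 13.6 RPM with FGF2 and 30.1 and 32.6 RPM with CsA (-1.12 ± 0.26, adjusted p = 0.028). Herpud1, Syvn1, Selk and Ppp1r15b lost the call without CsA replicate 1, CsA replicate 2 or FGF2 replicate 2 (adjusted p between 0.088 and 0.40). The transcription factors of the response did not pass. Xbp1, which Ire1 activates by splicing, had 83.3 and 123 RPM with FGF2 and 128 and 149 RPM with CsA (-0.44 ± 0.26, adjusted p = 0.35). Atf4, the effector of the Perk branch, overlapped between the groups at 149.9 and 172 RPM with FGF2 and 166 and 162 RPM with CsA (-0.03 ± 0.20, adjusted p = 0.96), with a sign that turned positive under median-ratio scaling.

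The promoters of these genes are shown because several of the genes lower with FGF2 carry the same element there. The ER stress element spans 19 bases, CCAAT and CCACG with 9 bases of any kind (N) between them. NF-Y is known to bind its first part and Atf6 or Xbp1 its second. It was searched on both strands in the RefSeq promoters of build GRCm38.p6, which run from 250 bases before to 50 bases after each gene start. Below are the elements of the 6 genes called lower that held it, written 5' to 3' in the direction of the element with its fixed letters in capitals, Hsp90b1 holding 2.
Hspa5 at position -65: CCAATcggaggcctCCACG
Hsp90b1 at position -212: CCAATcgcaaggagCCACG
Hsp90b1 at position -107: CCAATcgtgcctcaCCACG
Pdia6 at position -98: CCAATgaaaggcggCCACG
Dnajc3 at position -105: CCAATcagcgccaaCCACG
Creld2 at position -126: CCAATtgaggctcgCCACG
Syvn1 at position -44: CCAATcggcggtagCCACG
Positions are those of the element's leftmost base on the strand of the gene, counted from the gene start. The second Hsp90b1 element and that of Creld2 lie on the strand opposite to the gene. Creld2 shares its element with the divergently transcribed neighbour Alg12, which was not tested.

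The element stood in the promoters of 37 of 27025 genes, 0.137%. It stood in 14 of the 7748 tested genes with a promoter in the table, 0.181%, in 6 of the 127 genes called lower with a promoter there, 4.72%, and in none of the 98 called higher. Of the 27 ER chaperone genes 24 matched a promoter in the table, without Manf among them, and the element stood in 8 of these, 33.3%. Differences of the 14 tested genes had a median of -0.71, with 12 below 0, beside 55.1% of all tested genes, and 6 called, beside 2.93%. Besides the 6 called genes they were Calr, Canx, Derl3, Hnrnpa3, Acacb, Pan2, Xlr3a and Xlr3b. The last pair are near-identical copies whose reads may be shared. Derl3, another gene of ER-associated degradation, had 52.5 and 75.1 RPM with FGF2 and 101 and 92.2 RPM with CsA (-0.61 ± 0.35, adjusted p = 0.34), while Acacb and Pan2 had differences above 0, of 0.40 ± 0.40 and 0.52 ± 0.34, that did not pass (adjusted p = 0.61 and 0.40). Without FGF2 replicate 2, CsA replicate 1 or CsA replicate 2 the count of called genes with the element was 2 each time. A match of letters is a description of the sequence and shows no binding.

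For Hspa5, Hsp90b1 and Pdia6, chosen among the genes that hold the element to show where it lies, the 250 bases before the gene start are given on the strand of the gene, with each whole element in capitals.
Hspa5, chr2:34771840-34772089, plus strand: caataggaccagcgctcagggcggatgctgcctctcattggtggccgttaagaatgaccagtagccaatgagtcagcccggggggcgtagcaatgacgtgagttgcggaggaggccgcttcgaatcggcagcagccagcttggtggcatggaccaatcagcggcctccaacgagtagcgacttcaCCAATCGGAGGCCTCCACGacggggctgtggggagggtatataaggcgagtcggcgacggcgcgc
Hsp90b1, chr10:86705445-86705694, minus strand: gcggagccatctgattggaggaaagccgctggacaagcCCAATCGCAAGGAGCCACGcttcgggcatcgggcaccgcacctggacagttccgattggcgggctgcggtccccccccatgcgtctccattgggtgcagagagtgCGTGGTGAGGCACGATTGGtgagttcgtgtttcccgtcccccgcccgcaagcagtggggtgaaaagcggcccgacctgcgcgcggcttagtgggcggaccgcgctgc
Pdia6, chr12:17266339-17266588, plus strand: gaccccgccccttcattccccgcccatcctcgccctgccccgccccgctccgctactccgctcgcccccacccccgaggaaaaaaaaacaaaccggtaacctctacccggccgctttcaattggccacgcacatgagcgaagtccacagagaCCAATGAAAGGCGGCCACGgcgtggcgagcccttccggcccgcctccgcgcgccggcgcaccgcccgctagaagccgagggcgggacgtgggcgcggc

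The other 2 d4c7 groups place these levels. The ER chaperone list summed to 2400 and 2591 RPM with FGF10 and to 2448 and 2465 RPM with FR10, so in RPM both CsA libraries were above and both FGF2 libraries below all 4. The place of FGF2 below FR10 depended on the scaling. Median-ratio factors were 1.16 and 1.17 for the FR10 libraries and 0.994 and 0.884 for the FGF2 libraries. Divided by them, the FGF2 sums no longer lay below the FR10 sums, while the CsA sums stayed above. Hspa5 had 222 and 269 RPM with FGF10 and 257 and 288 RPM with FR10. Against FR10 its difference was -1.08 ± 0.31 with FGF2 (adjusted p = 0.043) and 1.31 ± 0.31 with CsA (adjusted p = 0.11), 2 comparisons that share the FR10 libraries. The Hsp90b1 values were -0.54 ± 0.16 with FGF2 (adjusted p = 0.0498) and 1.03 ± 0.16 with CsA (adjusted p = 0.038), and Sec61b had 0.29 ± 0.17 with FGF2 (adjusted p = 0.27) and 1.20 ± 0.17 with CsA (adjusted p = 0.024). Hsp90b1 and Sec61b were the 2 genes called higher with CsA against FR10 (0.0209%), where 0.0314% of tested genes, 3 in number, were called in either direction, the third being Dmtf1, which was lower. Against FR10, 8.84% of tested genes were called with FGF2 (1.37% higher and 7.47% lower), and the median of all genes was -0.33, which median-ratio scaling brought to -0.03. In germ cells sorted from E9.5 embryos and cultured as the group E9.5c5, Hspa5 had 679 and 274 RPM with CsA and 187 and 107 RPM with FR10, and Manf had 628 and 269 RPM with CsA and 164 and 122 RPM with FR10. No gene was called there in limma (0% of those tested), while 703 had an unadjusted p below 0.05, and the adjusted p of Hspa5 was 0.18.

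Few FGF target genes were called, and not all in the same direction. Etv4, an ETS transcription factor that FGF signalling through ERK induces, had 50.99 and 51.3 RPM with FGF2 and 8.39 and 4.83 RPM with CsA, a difference of 2.82 ± 0.40 (adjusted p = 0.0022), and was called without any one of the 4 libraries. Its level was 55.6 and 53.5 RPM with FGF10 and 23.6 and 16.6 RPM with FR10, so the FR10 libraries lay between the FGF2 and CsA libraries. Dusp9, a phosphatase that turns off ERK, had 78.01 and 95.02 RPM with FGF2 and 27.2 and 35.6 RPM with CsA (1.44 ± 0.30, adjusted p = 0.022). Among the FGF-induced transcription factors, 1 of 16 tested was called higher and 1 lower, and among the MAP kinase feedback inhibitors 1 of 14 was called higher and none lower. Over all tested genes, 1.27% were called higher and 1.66% lower. The FGF-induced transcription factor called lower was Klf6, a zinc-finger factor, with 4.57 and 1.46 RPM with FGF2 and 19.7 and 9.97 RPM with CsA (-2.03 ± 0.51, adjusted p = 0.043). Leaving out CsA replicate 1, CsA replicate 2 or FGF2 replicate 2 ended the call of Dusp9 and Klf6 (adjusted p between 0.071 and 0.33).

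Other known targets of ERK did not pass. The ERK phosphatase Dusp4 had 144 and 112 RPM with FGF2 and 78.1 and 66.5 RPM with CsA (0.81 ± 0.23, adjusted p = 0.062), and both FGF2 libraries lay above both CsA libraries. The same order held for the feedback inhibitor Spry4, at 4.95 and 11.4 RPM with FGF2 and 4.05 and 1.21 RPM with CsA (1.36 ± 0.52, adjusted p = 0.16), and for Spry1, at 13.7 and 10.9 RPM with FGF2 and 3.76 and 9.06 RPM with CsA (0.94 ± 0.43, adjusted p = 0.24). It held as well for the growth regulator Myc, at 7.61 and 2.43 RPM with FGF2 and 0.868 and 0 RPM with CsA (1.99 ± 0.59, adjusted p = 0.072). Of the 14 tested feedback inhibitors, 5 had both FGF2 libraries above both CsA libraries and 5 had both below. Of the 16 tested FGF-induced transcription factors, 9 had both above and 1 had both below. Over all tested genes the shares were 21.3% above and 26.6% below. Etv5, the close relative of Etv4, overlapped between the groups, at 149 and 89.7 RPM with FGF2 and 121 and 131 RPM with CsA (-0.12 ± 0.28, adjusted p = 0.85), and its sign turned positive without FGF2 replicate 2. Dusp6, the classical ERK phosphatase target of FGF, was near the floor in all 4 libraries, at 0.761 and 0 RPM with FGF2 and 1.74 and 1.21 RPM with CsA. None of 17 tested FGF ligands, receptors and adaptors was called, none had an unadjusted p below 0.05, and their median difference was 0. The receptor Fgfr1 had 72.3 and 73.6 RPM with FGF2 and 105 and 78.3 RPM with CsA (-0.31 ± 0.24, adjusted p = 0.49), and Fgfr3 had 22.8 and 10.7 RPM with FGF2 and 6.66 and 6.95 RPM with CsA (1.10 ± 0.54, adjusted p = 0.27).

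**Figure D3:**
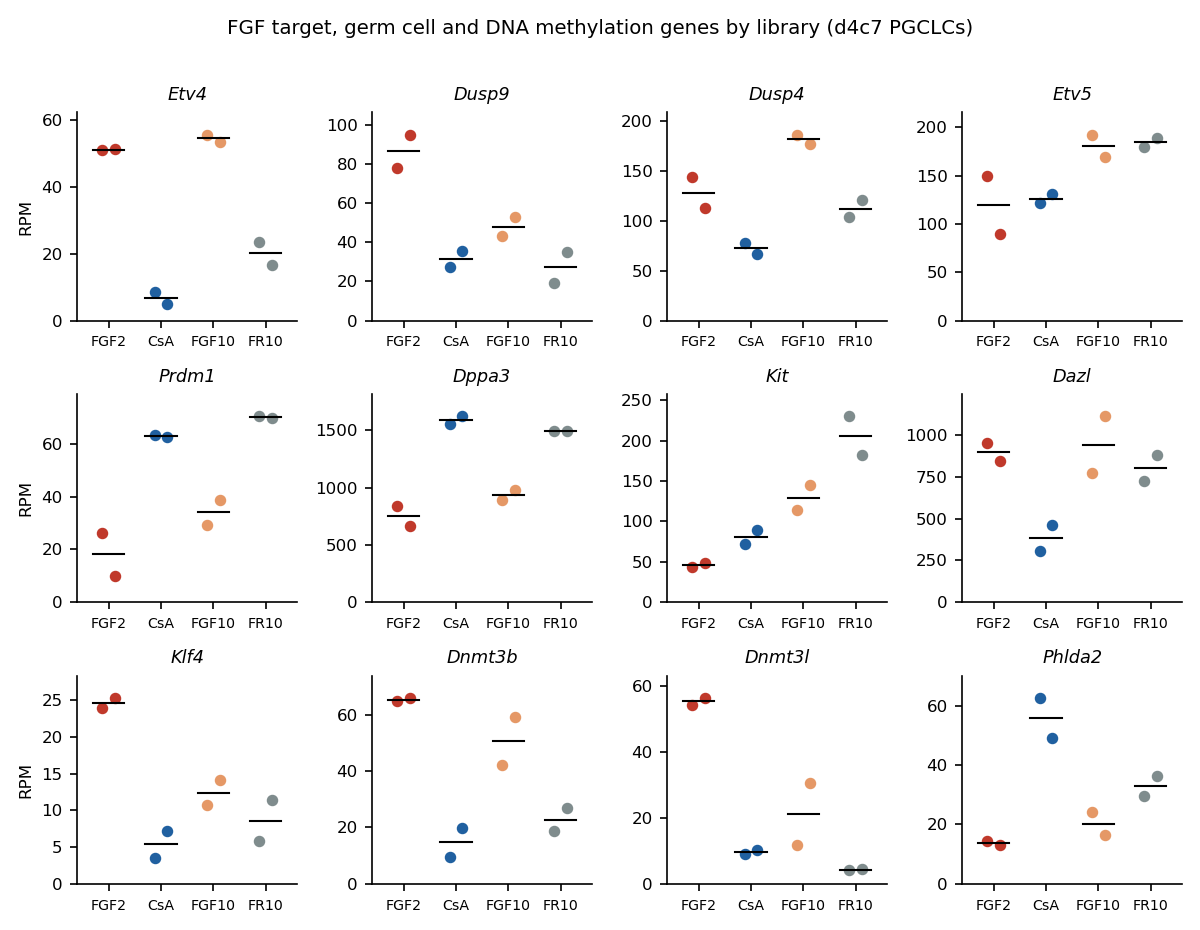
RPM (y axis, from 0) of 12 genes in the FGF2, CsA, FGF10 and FR10 cultures, with points for the 2 libraries of a group and bars for their mean. Etv4, Dusp9, Klf4, Dnmt3b and Dnmt3l were called higher and Prdm1, Dppa3 and Phlda2 lower with FGF2 than with CsA, while Dusp4, Etv5, Kit and Dazl were not called.

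The genes of the CsA target pathway did not pass the test. None of 14 tested calcineurin, NFAT and Rcan genes and none of 16 cyclophilins was called, with 4 and 5 of them at an unadjusted p below 0.05, and 1 calcineurin pathway gene was called lower without FGF2 replicate 1. Rcan1, an inhibitor of calcineurin that NFAT induces, had 72.7 and 53.7 RPM with FGF2 and 77.8 and 73.7 RPM with CsA (-0.27 ± 0.28, adjusted p = 0.62), an interval from -0.87 to 0.32. The regulatory subunit gene Ppp3r1 had 15.2 and 3.16 RPM with FGF2 and 38.8 and 26.6 RPM with CsA (-2.01 ± 0.58, adjusted p = 0.066). Ppia, the cytosolic cyclophilin A, had 5344 and 5579 RPM with FGF2 and 5830.0 and 5449 RPM with CsA (-0.05 ± 0.19, adjusted p = 0.92). Its groups overlapped, its sign changed under median-ratio scaling, and its many genomic copies may share its reads. The ER-resident cyclophilin B gene Ppib had 17.9 and 10.2 RPM with FGF2 and 35.02 and 29.3 RPM with CsA (-1.18 ± 0.53, adjusted p = 0.22).

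Among 14 tested cAMP pathway genes 2 were called lower and none higher, against 1.66% and 1.27% of all tested genes. The list median was -0.17, beside -0.078 for all tested genes. Prkar2b, a regulatory subunit of protein kinase A, had 1.14 and 0.243 RPM with FGF2 and 11 and 11.2 RPM with CsA (-2.89 ± 0.47, adjusted p = 0.0060), and 13.9 and 16.6 RPM with FR10. Creb1, the cAMP-responsive transcription factor, had 8.75 and 2.19 RPM with FGF2 and 32.1 and 19.6 RPM with CsA (-2.23 ± 0.45, adjusted p = 0.019). The regulatory subunit gene Prkar1a lay above the CsA libraries in both FGF2 libraries without passing, at 87.9 and 143 RPM with FGF2 and 73.5 and 77.96 RPM with CsA (0.56 ± 0.25, adjusted p = 0.22). The call of Prkar2b and Creb1 did not hold without CsA replicate 1, CsA replicate 2 or FGF2 replicate 2 (adjusted p between 0.061 and 0.19). None of 19 genes of the PI3K, AKT and KIT pathway was called, with 6 at an unadjusted p below 0.05 and 2 called lower without FGF2 replicate 1. Kit, the receptor of the SCF in the medium, had 43.4 and 48.1 RPM with FGF2 and 71.8 and 89.4 RPM with CsA (-0.80 ± 0.25, adjusted p = 0.084), against 114 and 145 RPM with FGF10 and 230.0 and 182 RPM with FR10. Both groups were below FR10, by -2.14 ± 0.25 with FGF2 (adjusted p = 0.00071) and by -1.34 ± 0.25 with CsA (adjusted p = 0.059), comparisons that share the FR10 libraries.

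Few germ cell genes were called, and their directions differed. Of 16 tested early germ cell genes, 2 were called lower with FGF2 and none higher, with a median of -0.45, and 4 were called lower without FGF2 replicate 1. Over all tested genes, 1.66% were called lower and 1.27% higher, with a median of -0.078. The 2 genes called lower were those behind the reporters. Prdm1, the transcription repressor Blimp1 that founds the germ line, had 26.3 and 9.96 RPM with FGF2 and 63.4 and 62.5 RPM with CsA (-1.89 ± 0.43, adjusted p = 0.029), and Dppa3, the maternal factor Stella, had 836 and 666 RPM with FGF2 and 1554 and 1620.0 RPM with CsA (-1.09 ± 0.24, adjusted p = 0.028). Cells were sorted for the Prdm1 reporter before RNA extraction, so the level of Prdm1 among sorted cells does not describe the whole culture. Prdm1 had 29.3 and 38.9 RPM with FGF10 and 70.5 and 69.7 RPM with FR10, and Dppa3 had 892 and 976 RPM with FGF10 and 1495 and 1495 RPM with FR10, so for both genes the FR10 and CsA libraries lay above the FGF2 and FGF10 libraries. Prdm1 and Dppa3 failed the threshold without CsA replicate 1, CsA replicate 2 or FGF2 replicate 2 (adjusted p between 0.13 and 0.28).

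The partners of Prdm1 did not pass. Prdm14 had 47.95 and 24.1 RPM with FGF2 and 57.01 and 77.96 RPM with CsA (-0.95 ± 0.31, adjusted p = 0.099), Tfap2c had 57.8 and 49.1 RPM with FGF2 and 66.3 and 73.7 RPM with CsA (-0.39 ± 0.26, adjusted p = 0.42), and Ifitm3, a surface marker of early germ cells, had 792 and 488 RPM with FGF2 and 1203 and 1074 RPM with CsA (-0.87 ± 0.25, adjusted p = 0.069). In the later germ cell list 1 of 17 tested genes was called higher, beside 1.27% of all tested genes. It was Slc25a31, the germ cell ADP/ATP carrier, with 30.4 and 48.4 RPM with FGF2 and 4.63 and 10.6 RPM with CsA (2.29 ± 0.50, adjusted p = 0.027). The RNA-binding protein gene Dazl had 954 and 844 RPM with FGF2 and 304 and 462 RPM with CsA, groups that did not overlap. Its difference of 1.26 ± 0.78, with an SE that draws on all 9 groups, did not pass (adjusted p = 0.38). The RNA helicase gene Ddx4 had 45.3 and 21.1 RPM with FGF2 and 50.6 and 47.1 RPM with CsA (-0.64 ± 0.58, adjusted p = 0.57). None of 11 tested meiotic entry genes was called or had an unadjusted p below 0.05, and the retinoic acid target Stra8 overlapped between the groups at 12.2 and 36.7 RPM with FGF2 and 2.31 and 14.2 RPM with CsA (1.65 ± 0.97, adjusted p = 0.35). Once CsA replicate 1, CsA replicate 2 or FGF2 replicate 2 was left out, Slc25a31 did not pass (adjusted p between 0.064 and 0.25).

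Of 23 tested core and naive pluripotency genes 1 was called, while 2 were called higher and 3 lower without FGF2 replicate 1. Over all tested genes, 2.93% were called. The called gene of the list was Klf4, a reprogramming factor, higher with FGF2 at 23.97 and 25.3 RPM with FGF2 and 3.47 and 7.25 RPM with CsA (2.08 ± 0.49, adjusted p = 0.031). Its relative Klf5 had the same order without passing, at 65.5 and 98.2 RPM with FGF2 and 41.1 and 37.2 RPM with CsA (1.02 ± 0.33, adjusted p = 0.095). Pou5f1, the factor Oct4, had 384 and 452 RPM with FGF2 and 314 and 328 RPM with CsA (0.38 ± 0.20, adjusted p = 0.30), Sox2 had 206 and 149.7 RPM with FGF2 and 246 and 256 RPM with CsA (-0.51 ± 0.24, adjusted p = 0.25), and Nanog overlapped at 66.6 and 36.9 RPM with FGF2 and 60.5 and 114 RPM with CsA (-0.73 ± 0.49, adjusted p = 0.42).

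Of 20 tested genes of the epiblast list 2 were called higher, both of DNA methylation, and 1 lower, against 1.27% and 1.66% of all tested genes. Dnmt3b, a methyltransferase that places new marks and that early germ cells normally keep low, had 64.7 and 65.9 RPM with FGF2 and 9.55 and 19.9 RPM with CsA (2.16 ± 0.32, adjusted p = 0.0028). Dnmt3l, its catalytically inactive partner, had 54.4 and 56.4 RPM with FGF2 and 8.97 and 10.3 RPM with CsA (2.41 ± 0.58, adjusted p = 0.033). Dnmt3b had 42.3 and 59.05 RPM with FGF10 and 18.6 and 26.9 RPM with FR10, and Dnmt3l had 11.9 and 30.6 RPM with FGF10 and 4.26 and 4.49 RPM with FR10, so both FGF2 libraries held the highest values of the 8 d4c7 libraries for both genes. Lefty2, a secreted inhibitor of Nodal, had 1.14 and 0 RPM with FGF2 and 10.1 and 5.44 RPM with CsA (-2.53 ± 0.41, adjusted p = 0.0060). These 2 methylation genes were also the called members among 14 tested DNA methylation enzymes, where Uhrf1, which directs maintenance methylation, did not pass at 11.8 and 6.56 RPM with FGF2 and 2.60 and 5.74 RPM with CsA (1.00 ± 0.41, adjusted p = 0.19). None of 28 histone modification enzymes was called, with 6 at an unadjusted p below 0.05, beside 1922 of all 9561 tested genes. Their median was -0.019, and it ranged between -0.048 and 0.039 with 1 library left out. Klf4 and Dnmt3l lost the call without CsA replicate 1, CsA replicate 2 or FGF2 replicate 2 (adjusted p between 0.071 and 0.27). Leaving out CsA replicate 1 ended the call of Dnmt3b (adjusted p = 0.067). The call of Lefty2 did not hold without CsA replicate 1 or FGF2 replicate 2 (adjusted p between 0.064 and 0.11).

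Phlda2, an imprinted growth inhibitor of the placenta, was the called member of 15 tested imprinted genes, with 14.5 and 13.1 RPM with FGF2 and 62.5 and 48.95 RPM with CsA (-1.93 ± 0.24, adjusted p = 0.0012), and it was called without any one of the 4 libraries. The imprinted transcription factor gene Plagl1 was listed at 0 in both FGF2 libraries and at 4.34 and 1.81 RPM in the CsA libraries and did not pass (adjusted p = 0.064). None of 10 tested BMP targets and mesoderm genes was called, with 2 at an unadjusted p below 0.05 and 1 called lower without FGF2 replicate 1, and the BMP target Id1 had 37.7 and 26.2 RPM with FGF2 and 16.5 and 3.63 RPM with CsA (1.85 ± 0.58, adjusted p = 0.083).

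Among cell cycle genes 2 were called, both of G1 and the entry into S phase. The background for the counts of this paragraph is 1.27% of all tested genes called higher and 1.66% lower, with a median of -0.078. Of 17 tested G1 cyclins, cyclin-dependent kinases and inhibitors, 2 were called higher and none lower, with a median of 0.40, and without FGF2 replicate 1 the counts were 2 higher and 1 lower and the median 0.24. Cdk6, a kinase of G1, had 15.98 and 21.6 RPM with FGF2 and 3.76 and 2.42 RPM with CsA (2.28 ± 0.38, adjusted p = 0.0067), and Ccne1, cyclin E1 of the entry into S phase, had 245 and 243 RPM with FGF2 and 132 and 128 RPM with CsA (0.90 ± 0.21, adjusted p = 0.030). Ccne1 was also the called member of 27 tested S phase genes, whose median was -0.053. None of 28 tested genes of the G2 and M phases was called, although 23 had differences below 0, beside 55.1% of all tested genes, and 6 an unadjusted p below 0.05. Their median was -0.23, and it ranged between -0.49 and -0.11 with 1 library left out. Cdk1 had 159.8 and 56.9 RPM with FGF2 and 196 and 225 RPM with CsA (-1.13 ± 0.44, adjusted p = 0.17). Of 18 tested Bcl2 family and cell death genes 1 was called, Bok, a pro-apoptotic relative of Bax, at 45.3 and 67.8 RPM with FGF2 and 5.79 and 11.2 RPM with CsA (2.63 ± 0.50, adjusted p = 0.014). Xiap, an inhibitor of caspases, had 22.4 and 7.05 RPM with FGF2 and 46.9 and 27.8 RPM with CsA (-1.44 ± 0.53, adjusted p = 0.15). None of 18 p53 targets was called, with 2 at an unadjusted p below 0.05 and 1 called lower without FGF2 replicate 1, and Ccng1, a cyclin-like p53 target, had 202 and 168 RPM with FGF2 and 89.1 and 138 RPM with CsA (0.73 ± 0.23, adjusted p = 0.084). Cdk6 failed the threshold without CsA replicate 2 or FGF2 replicate 2 (adjusted p between 0.064 and 0.067). Once CsA replicate 1, CsA replicate 2 or FGF2 replicate 2 was left out, Ccne1 and Bok did not pass (adjusted p between 0.051 and 0.19).

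In metabolism, 13 of 25 tested glycolysis and hypoxia genes had an unadjusted p below 0.05, beside 14 of the 23 tested ER chaperones. Of the 25, 2 were called higher and 1 lower, against 1.27% and 1.66% of all tested genes, with a median of 0.55. These values moved with single libraries, since without FGF2 replicate 1 the counts were 7 higher and 2 lower, without each of the other 3 libraries none was called, and without FGF2 replicate 2 the median was 0.17. Eno1, an enolase, had 151 and 258 RPM with FGF2 and 85.95 and 90.95 RPM with CsA (1.15 ± 0.30, adjusted p = 0.047), with genomic copies that may share its reads. The phosphofructokinase gene Pfkp had 215 and 197 RPM with FGF2 and 95.8 and 115 RPM with CsA (0.96 ± 0.25, adjusted p = 0.044). The called gene that was lower was Slc2a3, a glucose transporter, with 292 and 291 RPM with FGF2 and 585 and 593 RPM with CsA (-1.01 ± 0.20, adjusted p = 0.016). It had 235 and 279 RPM with FGF10 and 249.8 and 359 RPM with FR10, so the CsA libraries stood above the other 6. Eno1 and Slc2a3 lost the call without CsA replicate 1, CsA replicate 2 or FGF2 replicate 2 (adjusted p between 0.097 and 0.39). Leaving out CsA replicate 1, CsA replicate 2, FGF2 replicate 1 or FGF2 replicate 2 ended the call of Pfkp (adjusted p between 0.071 and 0.29).

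Of 32 tested oxidative phosphorylation genes, 1 was called higher and 2 lower, with a median of -0.22, and 5 were called lower without FGF2 replicate 1. Over all tested genes, 1.27% were called higher and 1.66% lower, with a median of -0.078. These shares are also the background for the lipid synthesis and antioxidant counts below. Uqcrc1, a core subunit of complex III, had 579 and 851 RPM with FGF2 and 311 and 317 RPM with CsA (1.16 ± 0.27, adjusted p = 0.032), while Uqcrb of the same complex had 292 and 213 RPM with FGF2 and 526 and 544 RPM with CsA (-1.10 ± 0.22, adjusted p = 0.016). The ATP synthase subunit gene Atp5j had 443 and 339 RPM with FGF2 and 793 and 732 RPM with CsA (-0.97 ± 0.19, adjusted p = 0.014). The fatty acid desaturase Scd1 was the called member of 28 tested lipid synthesis genes, with 0.381 and 3.40 RPM with FGF2 and 18.5 and 6.34 RPM with CsA (-2.28 ± 0.57, adjusted p = 0.040), and its relative Scd2 had 39.96 and 17.01 RPM with FGF2 and 78.4 and 41.7 RPM with CsA (-1.10 ± 0.35, adjusted p = 0.095). Among 26 antioxidant enzymes 2 were called, both lower and both glutathione S-transferases. Gstm1 had 39.2 and 24.8 RPM with FGF2 and 108 and 101 RPM with CsA (-1.72 ± 0.25, adjusted p = 0.0026), and Gsta4 had 94.4 and 78.2 RPM with FGF2 and 188 and 189.5 RPM with CsA (-1.12 ± 0.18, adjusted p = 0.0052). The call of Uqcrc1, Uqcrb, Atp5j and Gsta4 did not hold without CsA replicate 1, CsA replicate 2 or FGF2 replicate 2 (adjusted p between 0.056 and 0.27). Scd1 failed the threshold without CsA replicate 1, CsA replicate 2 or FGF2 replicate 1 (adjusted p between 0.065 and 0.34). Once CsA replicate 1 was left out, Gstm1 did not pass (adjusted p = 0.055).

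None of 32 tested ribosomal protein genes, 24 translation factors, 9 snoRNA host genes, 25 amino acid synthesis enzymes, 16 heat shock proteins of the cytosol and mitochondria or 28 splicing regulators was called. At an unadjusted p below 0.05 there were 3, 7, 2, 6, 2 and 11 genes in these lists, in the same order, beside 1922 of all 9561 tested genes. The medians of these lists were 0.098 for ribosomal proteins, 0.052 for translation factors, 0.036 for snoRNA hosts, -0.023 for amino acid enzymes, -0.057 for the other heat shock proteins and -0.30 for splicing regulators. The calls and medians of some of these lists moved with single libraries. Leaving out FGF2 replicate 1 gave 8 splicing regulators called lower with a median of -0.57, 2 amino acid enzymes called lower, 2 translation factors called higher and 1 lower, and 1 gene called lower in each of the ribosomal protein and snoRNA host lists. The median of splicing regulators was -0.071 without FGF2 replicate 2, that of amino acid enzymes ranged between -0.35 and 0.20 with 1 library left out, and that of snoRNA hosts between -0.048 and 0.35. The lack of a call among heat shock proteins outside the ER stood beside the 6 called ER chaperones, a contrast that was not tested. Pabpc1, which binds poly(A) tails, had 1140.0 and 2191 RPM with FGF2 and 583 and 896 RPM with CsA (1.13 ± 0.36, adjusted p = 0.094). The splicing factor gene Son had 126 and 77.5 RPM with FGF2 and 157 and 162 RPM with CsA (-0.69 ± 0.21, adjusted p = 0.083).

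**Figure D4:**
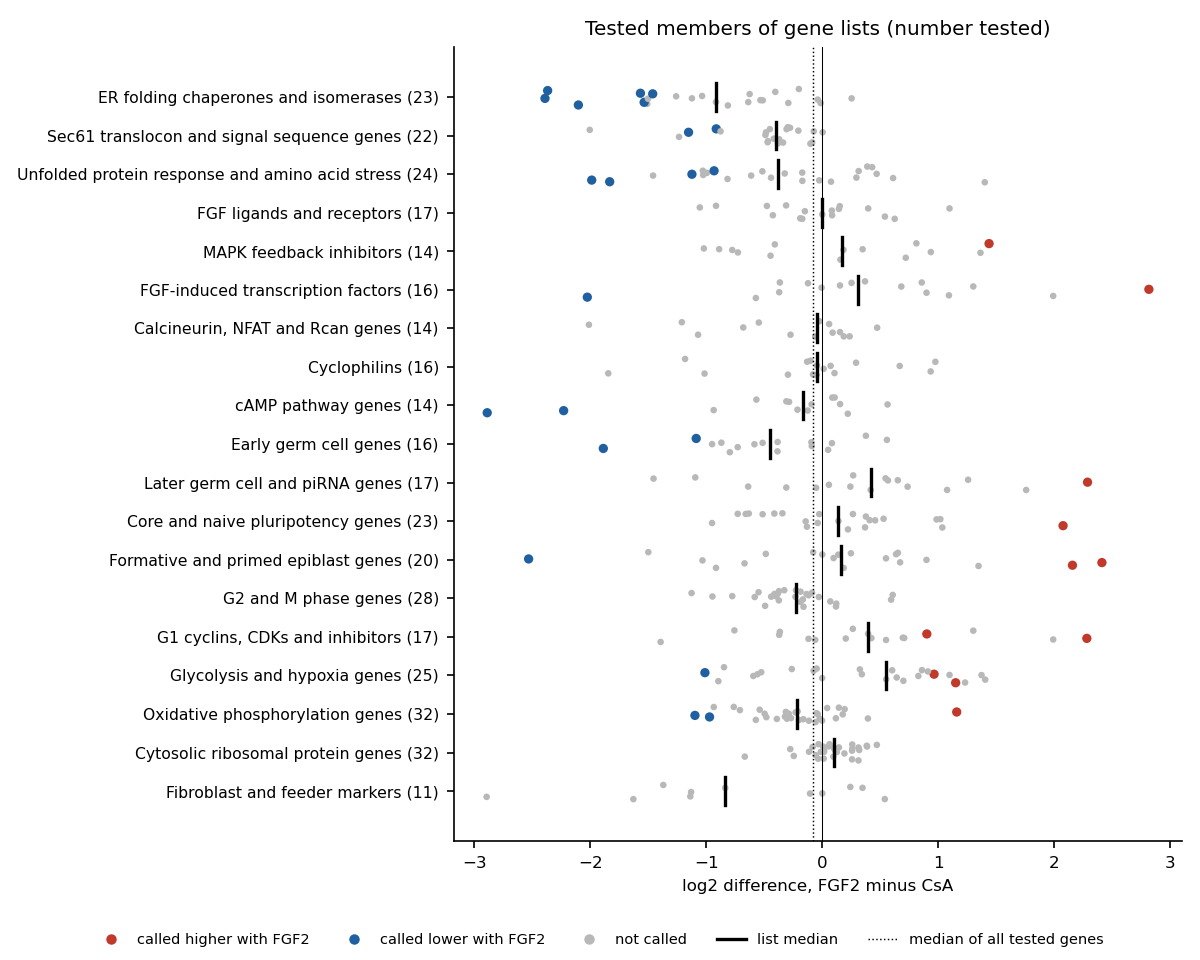
Log2 difference, FGF2 minus CsA (x axis), of each tested member of 19 gene lists (rows, with the number tested). Coloured points are called genes, black bars are list medians and the dotted line is the median of all tested genes, -0.078, and the ER chaperones have the lowest median of the 19 lists at -0.92, followed by the feeder markers at -0.84.

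Many of the largest increases were in genes near the detection limit with CsA. Rhd, a Rhesus blood group protein, had 23.6 and 56.6 RPM with FGF2 and 0 and 3.32 RPM with CsA (4.18 ± 0.67, adjusted p = 0.0054). Tcfl5, a transcription factor of the male germ line, had 14.1 and 16.5 RPM with FGF2 and 0.289 and 0.906 RPM with CsA (3.37 ± 0.54, adjusted p = 0.0054). Bcat1, the cytosolic aminotransferase of branched-chain amino acids, was detected in all 4 libraries, at 108 and 57.1 RPM with FGF2 and 5.79 and 9.37 RPM with CsA (3.24 ± 0.35, adjusted p = 0.00027), and its difference was the largest of the genes called without any one of the 4 libraries. It had 42.6 and 46.2 RPM with FGF10 and 12 and 12.8 RPM with FR10, and its difference from FR10 was 2.57 ± 0.35 with FGF2 (adjusted p = 0.0018) and -0.67 ± 0.35 with CsA (adjusted p = 0.41). N4bp3, which binds the ubiquitin ligase Nedd4, had 52.9 and 62.2 RPM with FGF2 and 2.31 and 10.9 RPM with CsA (3.22 ± 0.58, adjusted p = 0.011). The iron carrier transferrin, Trf, had 12.2 and 9.23 RPM with FGF2 and 0.289 and 0.302 RPM with CsA (3.16 ± 0.60, adjusted p = 0.014). The prostaglandin E synthase gene Ptges had 14.5 and 10.9 RPM with FGF2 and 0.868 and 0.604 RPM with CsA (2.97 ± 0.56, adjusted p = 0.013), and the testis protease gene Prss50 had 10.3 and 18.7 RPM with FGF2 and 1.45 and 1.21 RPM with CsA (2.68 ± 0.59, adjusted p = 0.026). The 3 next genes were listed at 0 in both CsA libraries and so have no fold. The Hippo pathway factor Tead4 had 11.04 and 4.37 RPM with FGF2 (adjusted p = 0.0080), the elongation factor kinase Eef2k had 9.89 and 3.65 RPM (adjusted p = 0.026) and Crmp1, a protein of axon guidance, had 3.04 and 9.23 RPM (adjusted p = 0.025). Esam, an adhesion molecule of endothelial cells and platelets, had 11.8 and 11.4 RPM with FGF2 and 0 and 0.604 RPM with CsA (3.31 ± 0.57, adjusted p = 0.0080). Rhd, Tcfl5, N4bp3 and Esam lost the call without CsA replicate 1 or FGF2 replicate 2 (adjusted p between 0.052 and 0.15). Leaving out CsA replicate 1, CsA replicate 2 or FGF2 replicate 2 ended the call of Trf, Ptges, Prss50 and Crmp1 (adjusted p between 0.064 and 0.22). The call of Tead4 did not hold without CsA replicate 1 or CsA replicate 2 (adjusted p between 0.065 and 0.096). Eef2k failed the threshold without CsA replicate 1, CsA replicate 2, FGF2 replicate 1 or FGF2 replicate 2 (adjusted p between 0.054 and 0.17).

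Esam was the called member of 5 tested endothelial markers, whose sum was 89.8 and 101 RPM with FGF2 and 52.4 and 53.8 RPM with CsA, with 4 of 11 markers at 0 in each FGF2 library and 5 of 11 in each CsA library. The endothelial receptor Tek did not follow it, at 4.19 and 0.243 RPM with FGF2 and 8.68 and 12.99 RPM with CsA (-2.20 ± 0.63, adjusted p = 0.065). The activin-binding protein Fst was the one tested gene among 9 markers of gonadal somatic cells. It was called, at 4.19 and 3.16 RPM with FGF2 and 0 in both CsA libraries (adjusted p = 0.026), while the sum of that list was 9.89 and 14.3 RPM with FGF2 and 4.92 and 3.93 RPM with CsA. Ectoderm and neural markers summed to 73.4 and 54.7 RPM with FGF2 and to 114 and 97.6 RPM with CsA, with none of 5 called and Nes, an intermediate filament of neural precursors, at 7.23 and 10.2 RPM with FGF2 and 22.6 and 16.01 RPM with CsA (-1.06 ± 0.35, adjusted p = 0.10). Once CsA replicate 1, CsA replicate 2 or FGF2 replicate 2 was left out, Fst did not pass (adjusted p between 0.11 and 0.17).

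Among the 12 largest decreases, Jam2, a junctional adhesion molecule, had 0 and 0.243 RPM with FGF2 and 11 and 12.99 RPM with CsA (-3.54 ± 0.61, adjusted p = 0.0080). Car12, a membrane carbonic anhydrase, had 0 and 2.19 RPM with FGF2 and 21.1 and 18.4 RPM with CsA (-3.54 ± 0.63, adjusted p = 0.0100). The developmental zinc-finger gene Sall1 had 0.761 and 0.729 RPM with FGF2 and 7.53 and 13.3 RPM with CsA (-2.66 ± 0.42, adjusted p = 0.0052), and the homeobox gene Hesx1 of the anterior embryo had 0.381 and 1.94 RPM with FGF2 and 7.53 and 15.7 RPM with CsA (-2.57 ± 0.59, adjusted p = 0.029). A pair of them belong to vesicle traffic. The GTPase gene Rab8b had 0.761 and 0 RPM with FGF2 and 10.4 and 7.55 RPM with CsA (-2.90 ± 0.67, adjusted p = 0.030), and Chml, which escorts Rab proteins to their lipid anchor, had 4.57 and 0 RPM with FGF2 and 16.8 and 16.01 RPM with CsA (-2.88 ± 0.72, adjusted p = 0.040). Eif4g3, a scaffold of translation initiation, was detected well in both groups, at 20.9 and 8.51 RPM with FGF2 and 77.8 and 95.2 RPM with CsA (-2.59 ± 0.37, adjusted p = 0.0022). The phospholipase gene Pla2g16 had 7.99 and 1.46 RPM with FGF2 and 37.9 and 24.8 RPM with CsA (-2.75 ± 0.51, adjusted p = 0.013). Sertad4, a gene of the SERTA domain family, had 3.04 and 0 RPM with FGF2 and 13.9 and 16.9 RPM with CsA (-3.02 ± 0.60, adjusted p = 0.016), and Gad2, the glutamate decarboxylase that makes GABA, had 0.381 and 0 RPM with FGF2 and 10.1 and 3.63 RPM with CsA (-2.61 ± 0.63, adjusted p = 0.033). The ubiquitin ligase gene Trim2 was listed at 0 in both FGF2 libraries and had 6.37 and 4.83 RPM with CsA (adjusted p = 0.026). Prkar2b, given above, completes the 12. Jam2 and Car12 lost the call without CsA replicate 1 or CsA replicate 2 (adjusted p between 0.065 and 0.11). Leaving out CsA replicate 2 ended the call of Sall1 (adjusted p = 0.067). The call of Hesx1 did not hold without CsA replicate 1, CsA replicate 2, FGF2 replicate 1 or FGF2 replicate 2 (adjusted p between 0.064 and 0.19). Rab8b, Chml, Pla2g16, Sertad4, Gad2 and Trim2 failed the threshold without CsA replicate 1, CsA replicate 2 or FGF2 replicate 2 (adjusted p between 0.059 and 0.37).

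The remaining genes called without any one of the 4 libraries, named after their values were seen, were Cd24a and Spats2. Cd24a, a surface glycoprotein of early progenitor cells, had 9.51 and 9.23 RPM with FGF2 and 76.7 and 46.5 RPM with CsA (-2.55 ± 0.33, adjusted p = 0.0012), and Spats2 had 4.57 and 2.92 RPM with FGF2 and 20.6 and 23.3 RPM with CsA (-2.29 ± 0.32, adjusted p = 0.0022). Of the 121 genes called higher with FGF2, the mean of the FR10 group lay between those of FGF2 and CsA for 101, above both for 4 and below both for 16. Of the 159 genes called lower, it lay between for 103, above both for 54 and below both for 2. On the log2 scale it was nearer to CsA than to FGF2 for 82 of the 121 and for 139 of the 159. The FGF10 mean was nearer to FGF2 for 99 of the 121 genes called higher and nearer to CsA for 99 of the 159 called lower. These counts of FR10 and FGF10 cover only genes chosen by FGF2 against CsA, without the same count over all tested genes. Typical RPM also stood higher with FR10 and FGF10, at median-ratio factors of 1.09 to 1.17, than with FGF2 and CsA, at 0.884 to 0.999. The part of scaling in the counts was not tested. With FGF2 against FGF10, 9 genes were called, 0.0941% of those tested, and all were lower with FGF2.

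**Figure D5:**
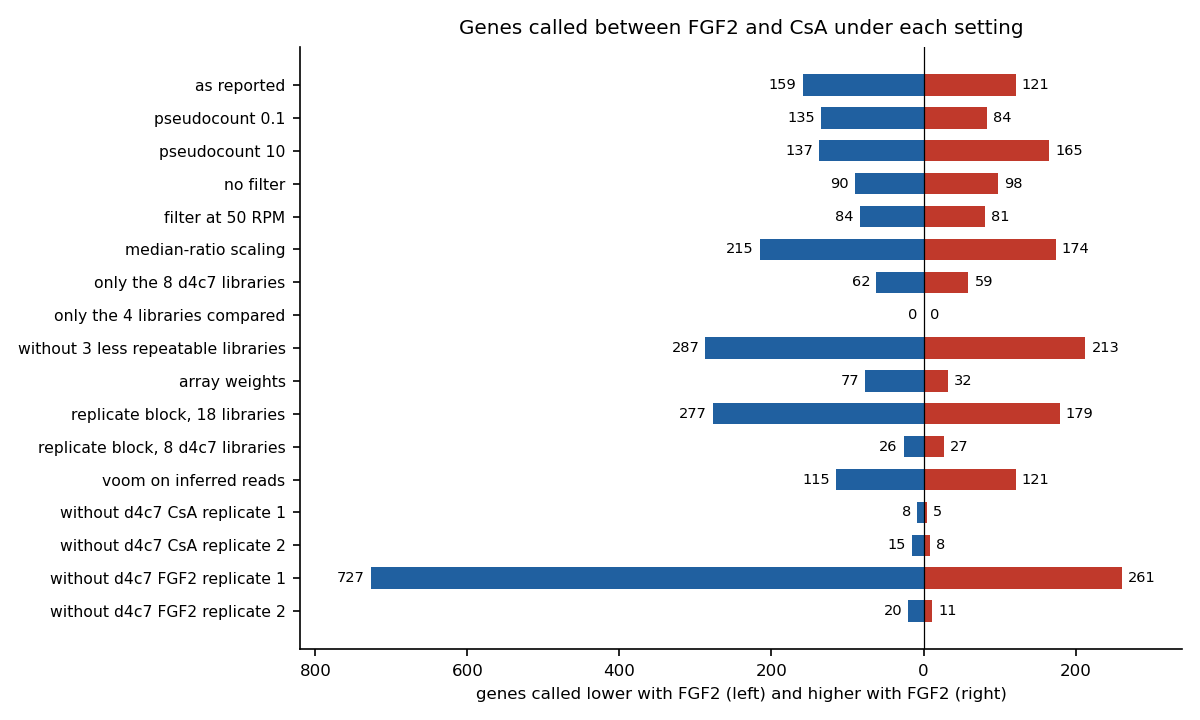
Number of genes called lower (left, blue) and higher (right, red) with FGF2 than with CsA, as reported and under each alternative setting (rows). The reported fit called 159 lower and 121 higher, and the count ranged between 0 and 988 over the alternatives, with the largest shifts where a single library was left out or where the 4 compared libraries stood alone in the fit.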

How the data were processed

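The deposited values are RPM, per the labels and the values, which sum to 999098 to 999617 per library, so the authors had scaled each library to a common read number. Tools listed in the submitters' processing notes, with no role given, are TopHat 1.4.1, Cufflinks 2.2.0 and cutadapt 1.3, beside the build mm10. Libraries were made by SC3-seq from 1 ng of RNA. The RPM are not corrected for transcript length, and no molecular identifiers are mentioned for the amplified reads, so limits of depth cover counting error only.

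A mean per group was fitted to log2(RPM + 1) of all 18 libraries with limma 3.58.1 (R 4.3.3, empirical Bayes with a variance trend, 9 residual degrees of freedom), for genes at 10 RPM or more in at least 2 libraries. Contrasts were adjusted by Benjamini-Hochberg over 9561 genes, and intervals are 95%. The method was run on simulated data in which each gene had the same spread in every group. The unequal spread of the FGF2 and CsA replicates was therefore not covered. All samples came from their labels, and no column was left unused. Genes were matched to RefSeq GRCm38.p6 by gene number (9504 of 9561), and tables were handled in Python 3.11.15 with pandas 2.3.3.

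The members and gene lists were chosen with earlier results of these data known. Named genes are the 12 largest called differences in each direction whose groups did not overlap, leaving out predicted genes and small RNAs, up to 4 called members of each list, up to 3 uncalled members where fewer than 3 were called, and a panel of germ cell, FGF, calcineurin and ER genes. Not every gene the rule allows is described. Alternatives changed the pseudocount, filter, scaling, libraries, weights, replicate block and test, or left out each library.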

Additional observations from a re-analysis of the deposited data

How the results depend on the processing

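All 280 called genes kept their direction under every alternative in which they were tested, 160 of them with the filter at 50 RPM. The count of genes called, 280 (121 higher, 159 lower), was 165 (81 higher, 84 lower) with the filter at 50 RPM and 188 (98 higher, 90 lower) with no filter, 121 (59 higher, 62 lower) with only the 8 d4c7 libraries, 0 (0 higher, 0 lower) with only the 4 compared libraries, 500 (213 higher, 287 lower) without the second replicates of FGF2, E9.5c5 FR10 and E9.5c5 CsA, which earlier work found less repeatable and whose loss leaves FGF2 with 1 library, and 109 (32 higher, 77 lower) with array weights, which gave FGF2 0.462 and CsA 1.21. With array weights 29.4% of calls were higher and with a pseudocount of 10 RPM 54.6%, against 43.2% as reported. Leaving out 1 of the 4 libraries gave between 13 and 988 calls, 5 to 261 higher and 8 to 727 lower. Same-numbered FGF2 and CsA replicates deviated together with a correlation of 0.0365 across genes, and the other pairs of d4c7 groups with -0.0301 to 0.2085. A low correlation cannot exclude that same-numbered cultures were made together, so whether the number pairs them is not known. A replicate block gave 456 calls (179 higher, 277 lower) in the fit of 18 libraries and 53 (27 higher, 26 lower) in that of the 8 d4c7 libraries. ER chaperones called lower, 6 as reported, were 0 with only the 4 libraries, 4 to 9 under the other fits that kept all replicates compared or dropped the 3 libraries, and 3 to 7 when 1 of the 4 was left out. The sign turned for Atf4 with median-ratio scaling (0.055) and between -0.125 and 0.0724 with 1 library left out, for Etv5 without the 3 libraries (0.241) and between -0.487 and 0.241 with 1 left out, and for Ppia with median-ratio scaling (0.0359) and between -0.0944 and 0.0029 with 1 left out. An alternative test with edgeR was not run, because 34 to 57 values per library lay far below the step of 1 read. For these shifts the cause was not tested. Where FGF2 or CsA is left with 1 library, the lone library of its group is assumed to vary like the other groups, and 3 reads per library set the floor.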

Other observations

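A few gene families were looked at after their values had been seen, so their counts describe these 4 libraries and support nothing. The 13 tested glutathione S-transferases had a median difference of -1.10, beside -0.078 for all tested genes. Of these 13, 5 were called lower with FGF2 and none higher, against 1.66% and 1.27% of all tested genes. Besides Gstm1 and Gsta4 they were Gstm2, at 12.2 and 9.72 RPM with FGF2 and 46.3 and 36.9 RPM with CsA (-1.83 ± 0.31, adjusted p = 0.0071), Gstm3, at 23.97 and 29.2 RPM with FGF2 and 81.3 and 84.9 RPM with CsA (-1.61 ± 0.37, adjusted p = 0.029), and Gstm5, at 3.81 and 4.37 RPM with FGF2 and 11.6 and 18.4 RPM with CsA (-1.62 ± 0.39, adjusted p = 0.034). The Gstm genes are close copies that lie side by side, and reads may be split between them. Their levels with FR10 were 42.2 and 26.9 RPM for Gstm2 and 60.4 and 73.5 RPM for Gstm3, nearer to CsA than to FGF2. Without CsA replicate 1 none of the 13 was called, and without CsA replicate 2, FGF2 replicate 1 and FGF2 replicate 2 the counts were 2, 4 and 1.

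Of 9 tested p24 cargo receptors, which carry proteins between the ER and the Golgi, 2 were called lower, beside 1.66% of all tested genes. Tmed10 had 124 and 101 RPM with FGF2 and 289 and 258 RPM with CsA (-1.27 ± 0.29, adjusted p = 0.029), and Tmed3 had 15.6 and 15.3 RPM with FGF2 and 45.1 and 35.4 RPM with CsA (-1.32 ± 0.34, adjusted p = 0.044). Of 4 tested subunits of the LRRC8 volume-regulated anion channel 2 were called lower, again beside 1.66% of all tested genes. They were Lrrc8c at 3.81 and 0 RPM with FGF2 and 8.97 and 14.2 RPM with CsA (-2.49 ± 0.60, adjusted p = 0.033) and Lrrc8d at 11.4 and 3.16 RPM with FGF2 and 34.1 and 30.5 RPM with CsA (-2.21 ± 0.58, adjusted p = 0.047). In the other direction, 2 of 20 cytosolic aminoacyl-tRNA synthetases, which load amino acids onto tRNA, were called higher, beside 1.27% of all tested genes. Sars had 84.9 and 96.5 RPM with FGF2 and 45.4 and 48.6 RPM with CsA (0.93 ± 0.21, adjusted p = 0.029), and Vars had 370.3 and 466 RPM with FGF2 and 235 and 221 RPM with CsA (0.87 ± 0.22, adjusted p = 0.040). Tmed10, Tmed3, Lrrc8c, Lrrc8d, Sars and Vars failed the threshold without CsA replicate 1, CsA replicate 2 or FGF2 replicate 2 (adjusted p between 0.11 and 0.39).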
